A study of Mus musculus with 5 samples.

Results

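The 10 genes described here were Trp53, which encodes the transcription factor p53, and 9 genes that p53 switches on or that brake the cell cycle beside it, namely Mdm2, Cdkn1a, Ccng1, Bax, Bbc3, Trp53inp1, Gdf15, Cdkn2a and Cdkn2b. They were chosen by name, with no threshold on their values. Each symbol matched 1 of the 55397 genes in the table, and all 10 were among the 17105 genes with enough signal to be tested. Their messenger RNA was measured by bulk RNA-seq in liver tumours cut out of C57BL/6N females injected at 8 weeks of age. All tumours were started by hydrodynamic tail vein injection, which forces plasmid DNA into liver cells, with Sleeping Beauty transposase and transposons that carry AKT and the intracellular domain of NOTCH (NICD), both driven by the EF1a promoter. This pair of oncogenes gives tumours that resemble cholangiocarcinoma (CCA), a cancer of bile duct character. The NICD transposon also carried rtTA, a switch that doxycycline turns on. In the Prox1 OE group (n = 3) a further transposon placed FLAG-tagged mouse Prox1 with GFP under that switch, and in the Control group (n = 2, EV in the labels) the same transposon held GFP alone. All mice ate doxycycline food (6.25%) from day 21, and Prox1 overexpression ran from week 3 to 4. Collection came at the end of that week or when a mouse reached a humane endpoint, and which of these held for a given tumour is not stated. No p53 gene was deleted or mutated by design in either group. The labels name replicates without saying that they came from separate mice, so p-values measure the spread between these libraries.

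p53 is kept at a low level by the ubiquitin ligase MDM2, whose own gene p53 switches on, which closes a feedback loop. When DNA is damaged or oncogenes drive a cell, p53 is released and binds DNA elements near genes for cell cycle arrest (Cdkn1a, Ccng1), for cell death (Bax, Bbc3, Trp53inp1) and for secreted signals (Gdf15). The neighbouring genes Cdkn2a and Cdkn2b brake the cycle by another route. Their INK4 proteins block the cyclin D kinases, and ARF, the second product of Cdkn2a, holds MDM2 away from p53. Oncogenes induce this locus in many tissues, and it and Trp53 are often lost in liver and bile duct cancers.

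p53 binds a pair of half-sites of 10 bases each, and such pairs in the promoters show where the genes of this group carry a candidate element. RefSeq promoter windows of 300 bases (250 before and 50 after each start site, GRCm38.p6, the sequence of mm10) were searched on both strands for 2 half-sites with a spacer of 0 or 1 base and at most 3 mismatches to the p53 half-site consensus, with the C and G at the core of each half-site kept. A window was given for 9 of the 10 genes (14 windows, all but Trp53inp1). Such a pair stood in 5 of the 14 windows, against 2.82% of 32851 windows of the same length. At most 1 mismatch was found in 2 of the 14 windows, against 0.11% of all windows. The search limits were chosen after the windows had been seen, and a match describes letters and shows no binding. The 5 pairs are shown because they mark the members with a candidate p53 element at the start site. Each runs 5′ to 3′ on the strand of its gene, with half-sites in capitals and 20 bases on either side.
Cdkn1a: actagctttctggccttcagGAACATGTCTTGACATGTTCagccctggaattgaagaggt
Ccng1: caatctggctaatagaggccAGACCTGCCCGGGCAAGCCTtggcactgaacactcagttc
Bax: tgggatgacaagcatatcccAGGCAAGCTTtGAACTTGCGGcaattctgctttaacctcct
Bbc3: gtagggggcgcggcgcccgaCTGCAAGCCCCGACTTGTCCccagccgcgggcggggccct
Trp53: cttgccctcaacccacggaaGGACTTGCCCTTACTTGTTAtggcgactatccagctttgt
The Cdkn1a pair (chr17:29090928-29090947, plus strand) and the Ccng1 pair (chr11:40755462-40755481, minus strand) each had 1 mismatch, and began 51 and 195 bases before the start site. The Bax pair (chr7:45467079-45467099, minus strand) had 2 mismatches and a spacer of 1 base, and began 201 bases before it. The Bbc3 pair (chr7:16309486-16309505, plus strand) and the Trp53 pair (chr11:69580284-69580303, plus strand) each had 3 mismatches. No such pair was in the windows of Mdm2, Gdf15, Cdkn2a or Cdkn2b.

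Libraries held 48740863 to 56629477 reads. As a check of the labels, Prox1 stood at 4153 and 4664 normalised counts in Control against 48090, 11113 and 8231 in Prox1 OE, all above Control, with a limma adjusted p of 0.0607 and its highest value in replicate 1 (adjusted p 0.00551 without that library). Cholangiocyte keratins (Krt19, 8442 and 10790 normalised counts in Control) and hepatocyte genes were both present in every library. Of the 17105 genes tested with limma on log2(normalised count + 1), 33.3% passed an adjusted p of 0.05, 17.1% higher and 16.2% lower in Prox1 OE. A gene that passed is said below to have risen or fallen.

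Of the 10 genes, 2 rose in Prox1 OE (Gdf15 and Bbc3), 3 fell (Cdkn2b, Cdkn2a and Trp53) and 5 did not pass the test, against 33.3% passing among all genes tested (17.1% higher, 16.2% lower). The 10 had a median log2 fold change of -0.25, against -0.02 over all genes tested. Prox1 OE and Control libraries did not overlap for 8 of the 10, as for 63.3% of all genes tested. The 3 that did not overlap yet missed the threshold were Mdm2, Ccng1 and Trp53inp1, all at lower values in Prox1 OE. The calls rested on few libraries. Without Control replicate 1 or without Control replicate 2, 1 of the 10 was higher (Gdf15) and 0 were lower with limma (2 at an unadjusted p under 0.05 in either fit). Without Prox1 OE replicate 2, 1 was higher and 1 lower, and without Prox1 OE replicate 3, 2 were higher and 1 lower. They also depended on scaling. With each library's total count in place of the size factors, the median of all genes moved from -0.02 to -0.45, 1 member was higher (Gdf15) and 8 were lower (all but Gdf15 and Bbc3).

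**Figure D1:**
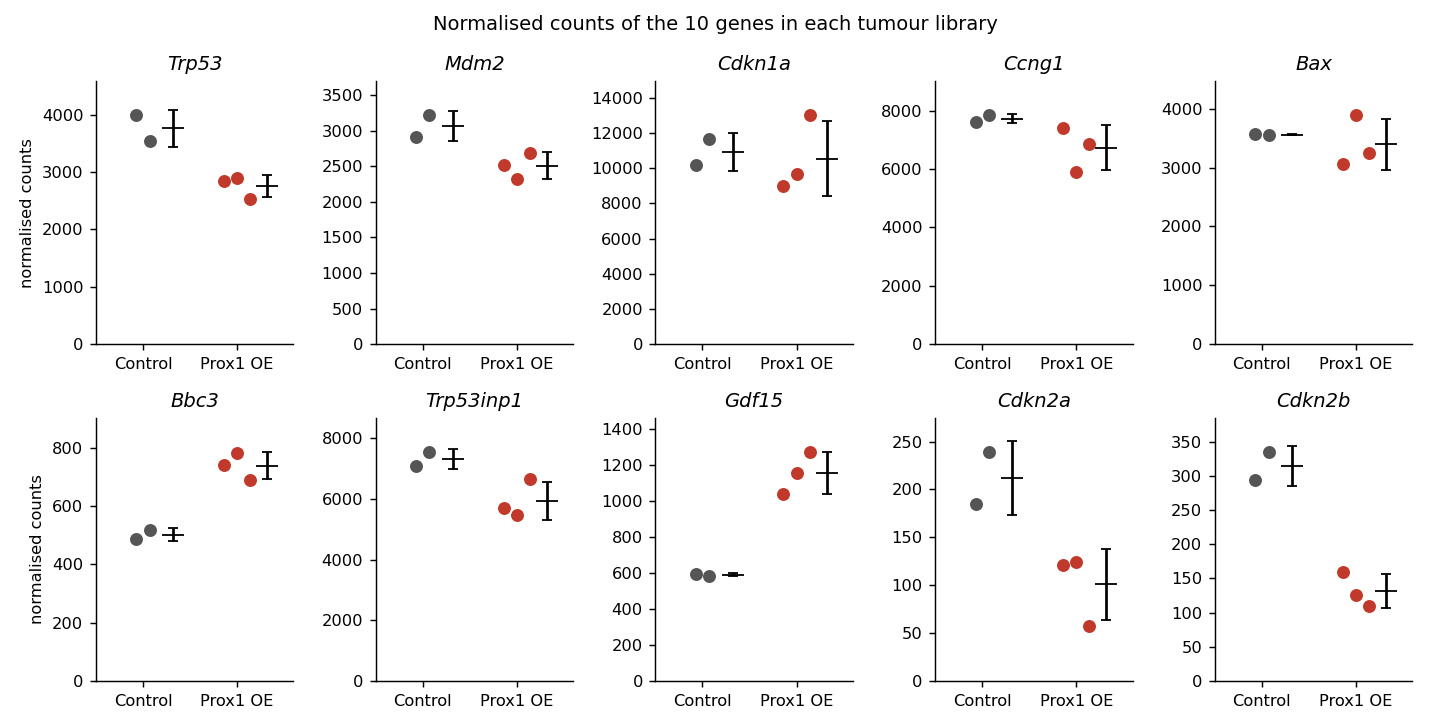
Normalised counts (vertical axes, from 0) of each gene in the 2 Control libraries (grey points) and the 3 Prox1 OE libraries (red points), with the mean and SD beside each group. The Prox1 OE points lie above Control for Bbc3 and Gdf15, overlap it for Cdkn1a and Bax, and lie below it for the other 6 genes.

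Trp53 itself was lower in Prox1 OE. Trp53 (ENSMUSG00000059552, mm10 chr11:69580359-69591873, plus strand, protein coding) stood at 3986 and 3535 normalised counts, its reads divided by a size factor of the library, in Control replicates 1 and 2. Prox1 OE replicates 1 to 3 stood at 2840, 2889 and 2531. The groups did not overlap, with all 3 Prox1 OE libraries under both Control libraries. Means were 3760 ± 319 (SD, n = 2) and 2753 ± 194 (SD, n = 3), a log2 fold change of -0.45 (SE 0.12, 95% interval -0.73 to -0.17, limma adjusted p 0.0262). The call rested on single libraries, since the adjusted p was 0.244 without Control replicate 1, 0.0923 without Control replicate 2, 0.0512 without Prox1 OE replicate 2 and 0.0642 without Prox1 OE replicate 3. It was also 0.0522 with upper-quartile factors and 0.0671 with limma without the trend. With the replicate number as a block, a fit that also left out Prox1 OE replicate 3, the limma adjusted p was 0.0666. The processed pseudogene Trp53-ps was assigned 1 to 15 reads per library, against at least 2187 for Trp53, and how reads that match both were counted is not given in the sources used here. In bulk tumours, fewer cells of a type and less RNA per cell cannot be told apart, here and for every gene below.

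Mdm2, the p53 antagonist and target, had lower values in Prox1 OE that missed the threshold. Mdm2 (ENSMUSG00000020184, chr10:117688875-117710758, minus strand) stood at 2917 and 3216 normalised counts in Control. The Prox1 OE libraries had 2516, 2315 and 2691, all below Control. The log2 fold change was -0.29 (SE 0.12, 95% interval -0.57 to -0.01, limma adjusted p 0.0971). The proportion of Mdm2 to Trp53 within a library was compared as well. The log2 ratio of Mdm2 to Trp53 was -0.45 and -0.14 in Control and -0.17, -0.32 and 0.09 in Prox1 OE, and the groups overlapped (mean difference 0.16, exact permutation test, two-sided p = 0.5). With 2 against 3 libraries this exact permutation test has 10 splits and cannot go below p = 0.1.

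Of the arrest genes, Cdkn1a, whose product p21 inhibits the cyclin-dependent kinases, was the member with the most RNA per length and did not pass the test. Cdkn1a (ENSMUSG00000023067, chr17:29090976-29100727, plus strand) had 10169 and 11677 normalised counts in Control. Prox1 OE replicates 1 and 2 had 8997 and 9649, below both Control libraries, while replicate 3 had 13009, above both. The groups overlapped, with means of 10923 ± 1066 (SD, n = 2) and 10551 ± 2153 (SD, n = 3). The limma fit gave a log2 fold change of -0.07 (SE 0.18, adjusted p 0.801), with a 95% interval of -0.48 to 0.35 that covers changes in both directions. Its sign depended on the fit, with 0.01 under upper-quartile factors, 0.03 without Control replicate 2, 0.04 without Prox1 OE replicate 1 and -0.5 under total-count scaling (adjusted p 0.021). The log2 ratio of Cdkn1a to Trp53 was 1.35 and 1.72 in Control and 1.66, 1.74 and 2.36 in Prox1 OE (difference 0.38, exact permutation two-sided p = 0.5). Cdkn1a shares 273 exon bases (7.68%) with AC167363.2 on the opposite strand, which had 0 to 4 reads per library.

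Ccng1, which encodes the atypical cyclin G1 and is a known p53 target, with a candidate element among those shown above, did not pass the test. Ccng1 (ENSMUSG00000020326, chr11:40748552-40755311, minus strand) had 7619 and 7839 normalised counts in Control. It had 7417, 5896 and 6865 in Prox1 OE. All 3 lay below Control, with replicate 1 close to it. The log2 fold change was -0.21 (SE 0.13, 95% interval -0.51 to 0.1, limma adjusted p 0.257).

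Of the 3 cell death genes, Bbc3 rose, and Bax and Trp53inp1 did not pass the test. Bbc3 (ENSMUSG00000002083, chr7:16308393-16318205, plus strand) encodes PUMA, a protein with a BH3 domain that sets off apoptosis. It had 486 and 520 normalised counts in Control. Prox1 OE replicates 1, 2 and 3 had 742, 785 and 691. Every Prox1 OE library stood above both Control libraries. Means were 503 ± 23.5 (SD, n = 2) and 739 ± 46.9 (SD, n = 3), a log2 fold change of 0.55 (SE 0.14, 95% interval 0.23 to 0.87, limma adjusted p 0.0201). The call was lost without Control replicate 1 (adjusted p 0.181), Control replicate 2 (0.108) and Prox1 OE replicate 2 (0.0608), at fold changes of 0.51 to 0.6 on the log2 scale. Under total-count scaling the log2 fold change was 0.12 (adjusted p 0.593).

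Bax (ENSMUSG00000003873, chr7:45461697-45466898, minus strand) encodes the protein that opens the outer mitochondrial membrane. Its Control libraries had 3565 and 3556 normalised counts. Prox1 OE libraries had 3054, 3886 and 3239, with replicate 2 above Control and the other two below it. The log2 fold change was -0.08 (SE 0.13, 95% interval -0.39 to 0.23, limma adjusted p 0.683), 0 under upper-quartile factors and -0.51 under total-count scaling (adjusted p 0.0293). Bax shares 192 exon bases with Gm45808 on the same strand, which had 0 to 1 reads per library. Set against Bcl2l1, which encodes the survival protein BCL-XL, the log2 ratio of Bax was -0.81 and -0.87 in Control and -0.67, -0.56 and -0.71 in Prox1 OE. All 3 Prox1 OE ratios were above Control, by a mean of 0.19 (exact permutation two-sided p = 0.1, the smallest the design allows).

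Trp53inp1 (ENSMUSG00000028211, chr4:11156431-11174379, plus strand) encodes a stress-induced partner of p53 that acts in apoptosis and autophagy. Control libraries had 7094 and 7550 normalised counts. Prox1 OE libraries had 5688, 5470 and 6654. The groups did not overlap, with Prox1 OE lower. The log2 fold change was -0.31 (SE 0.13, 95% interval -0.6 to -0.01), and the limma adjusted p of 0.0999 missed the threshold.

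Gdf15 rose most of the 10. Gdf15 (ENSMUSG00000038508, chr8:70629393-70632456, minus strand) encodes a secreted stress cytokine of the TGF-beta superfamily that acts on appetite and is induced by p53 and by the integrated stress response. The Control libraries had 596 and 582 normalised counts. Prox1 OE replicates 1, 2 and 3 had 1037, 1154 and 1270. The lowest Prox1 OE value was well above both Control values, which lay close together. Means were 589 ± 9.4 (SD, n = 2) and 1153 ± 116 (SD, n = 3), a ratio of 1.96 and a log2 fold change of 0.96 (SE 0.14, 95% interval 0.64 to 1.28, limma adjusted p 0.00345). Gdf15 alone of the 10 passed under all 16 alternatives, with log2 fold changes of 0.53 (total-count scaling) to 1.04 and an adjusted p of 0.0367 or less. Without Control replicate 1 the adjusted p was 0.0367, and without Control replicate 2 it was 0.029.

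Both genes of the INK4 locus fell. Cdkn2b (ENSMUSG00000073802, chr4:89306299-89311039, minus strand) encodes p15. It had 293 and 335 normalised counts in Control. Prox1 OE replicates 1, 2 and 3 had 160, 125 and 110. All Prox1 OE values were far below both Control values. Means were 314 ± 29.4 (SD, n = 2) and 132 ± 25.4 (SD, n = 3), a ratio of 0.419 and a log2 fold change of -1.26 (SE 0.23, 95% interval -1.79 to -0.74, limma adjusted p 0.00663). The call was lost without Control replicate 1 (adjusted p 0.0523) and without Control replicate 2 (0.0636), when a single Control library remained, and held under the other 14 alternatives.

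Cdkn2a (ENSMUSG00000044303, chr4:89274471-89294653, minus strand) lies 11645 bases from Cdkn2b. It has separate start sites for the p16 and ARF transcripts, which one count per gene cannot separate. Control libraries had 185 and 239 normalised counts. Prox1 OE libraries had 121, 124 and 57.9, from 118, 105 and 50 reads. Replicate 3 was the lowest, and no Prox1 OE library reached Control. The log2 fold change was -1.13 (SE 0.36, 95% interval -1.98 to -0.28), and the limma adjusted p of 0.0486 lay just inside the threshold. It was over the threshold with TMM factors (0.0527), upper-quartile factors (0.0611), no filter (0.0859), limma without trend (0.0853) and edgeR's quasi-likelihood test (0.0541). It was also over it without Control replicate 1 (0.135), Control replicate 2 (0.235), Prox1 OE replicate 2 (0.0678) or Prox1 OE replicate 3 (0.0575). Its log2 fold change ran from -1.32 to -0.78 when 1 library was left out. The log2 ratio of Cdkn2b to Cdkn2a within a library was 0.66 and 0.48 in Control and 0.4, 0.01 and 0.91 in Prox1 OE, which overlapped (difference -0.13, exact permutation two-sided p = 0.7).

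**Figure D2:**
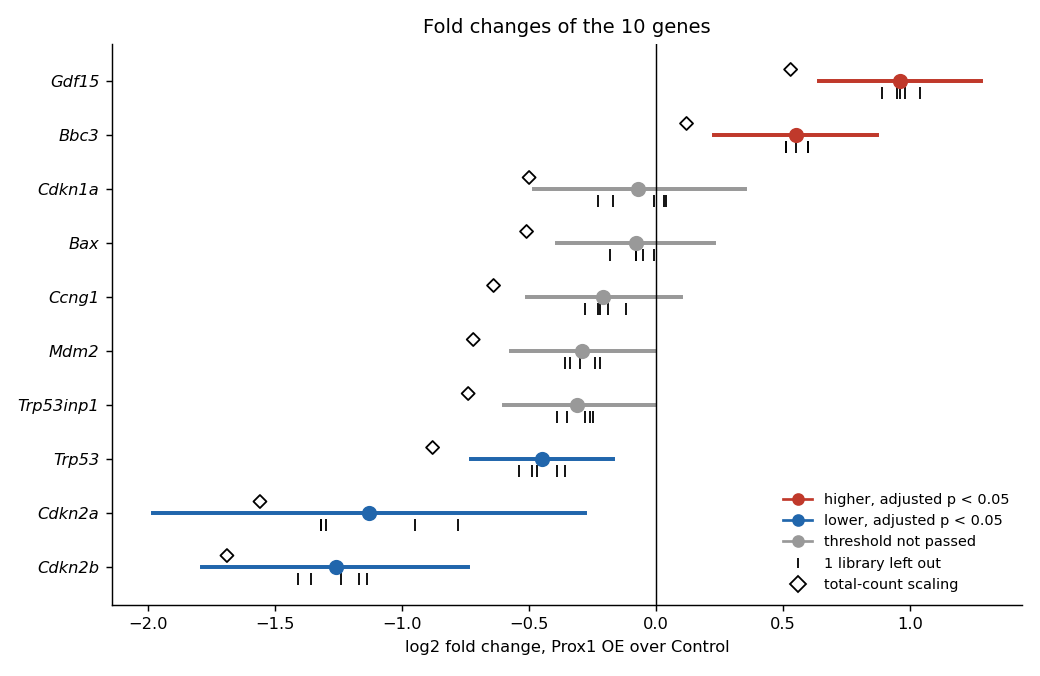
Log2 fold change of each gene, Prox1 OE over Control (horizontal axis), with its 95% interval from limma (coloured lines), the values with 1 library left out (black ticks) and the value under total-count scaling (diamonds). Gdf15 (0.96) and Bbc3 (0.55) lie above 0 under every setting drawn with their intervals, Trp53, Mdm2, Trp53inp1, Cdkn2a and Cdkn2b lie below 0 throughout, and every diamond lies to the left of its point.

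Compared per kilobase of exon, the 10 genes spanned a wide range of levels. In Control the order of mean normalised counts per kilobase was Cdkn1a (3074), Bax (2259), Ccng1 (2201), Trp53inp1 (1131), Trp53 (930), Mdm2 (603), Gdf15 (318), Bbc3 (237), Cdkn2b (226) and Cdkn2a (181). Only the neighbours Bbc3 and Cdkn2b had overlapping Control libraries on this scale. In Prox1 OE, Gdf15 (623 per kilobase) moved past Mdm2 (493) and overlapped Trp53 (681), and the ranks of the other genes stayed as they were. Bax and Ccng1 overlapped there, as did Cdkn2b (94.6) and Cdkn2a (86). The INK4 genes were thus the lowest of the 10 in both groups, while the p53 target Cdkn1a was the highest in both.

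Other p53 target genes were examined as a list of 31, of which 30 had enough signal. In it 7 rose, 8 fell and 15 did not pass, with a median log2 fold change of -0.16 against -0.02 over all genes. Among all genes tested 17.1% rose and 16.2% fell, so these counts are not read as particular to the targets. Dcxr, a carbonyl reductase of sugar metabolism, rose from 830 and 1248 normalised counts in Control to 2350, 2981 and 4044 in Prox1 OE (log2 fold change 1.58, limma adjusted p 0.00485). Fas, the death receptor, rose from 536 and 659 to 1083, 1224 and 1540 (1.09 on the log2 scale, with a limma adjusted p of 0.0563 without Control replicate 1). Plk3, a stress kinase, had 1131 and 1677 in Control and 1792, 4596 and 5166 in Prox1 OE (log2 fold change 1.34), with Prox1 OE replicate 1 close to Control. Its limma adjusted p was 0.0487, and it missed the threshold when any library but Prox1 OE replicate 1 was left out (0.0833 to 0.239), without the trend (0.112), with no filter (0.0888) and under total-count scaling (0.073).

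Among the 8 genes of this list that fell was Pmaip1. Pmaip1, which encodes NOXA and is a BH3 gene like Bbc3, fell from 421 and 513 normalised counts in Control to 169, 116 and 130 in Prox1 OE (log2 fold change -1.76, limma adjusted p 0.00281). The death receptor gene Tnfrsf10b (1037 and 1079 against 597, 504 and 569) fell by 0.93 on the log2 scale. Eda2r, another receptor of that family (767 and 506 against 314, 206 and 296), fell by 1.22, and its adjusted p was 0.115 without Control replicate 1. Bbc3 and Pmaip1 thus went opposite ways. Their log2 ratio within a library was 0.21 and 0.02 in Control and 2.13, 2.75 and 2.41 in Prox1 OE, a difference of 2.32 that needs no scaling between libraries (exact permutation two-sided p = 0.1, the smallest possible, for a ratio chosen after its values were seen). Rps27l, a ribosomal protein gene and the most abundant target that missed the threshold, had 8407 and 8684 in Control and 9196, 13143 and 14673 in Prox1 OE (log2 fold change 0.50, limma adjusted p 0.09). The counts of 7 and 8 were 2 and 4 without Control replicate 1, 4 and 6 without Control replicate 2, 4 and 8 without Prox1 OE replicate 2 or 3, and 3 and 15 under total-count scaling.

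**Figure D3:**
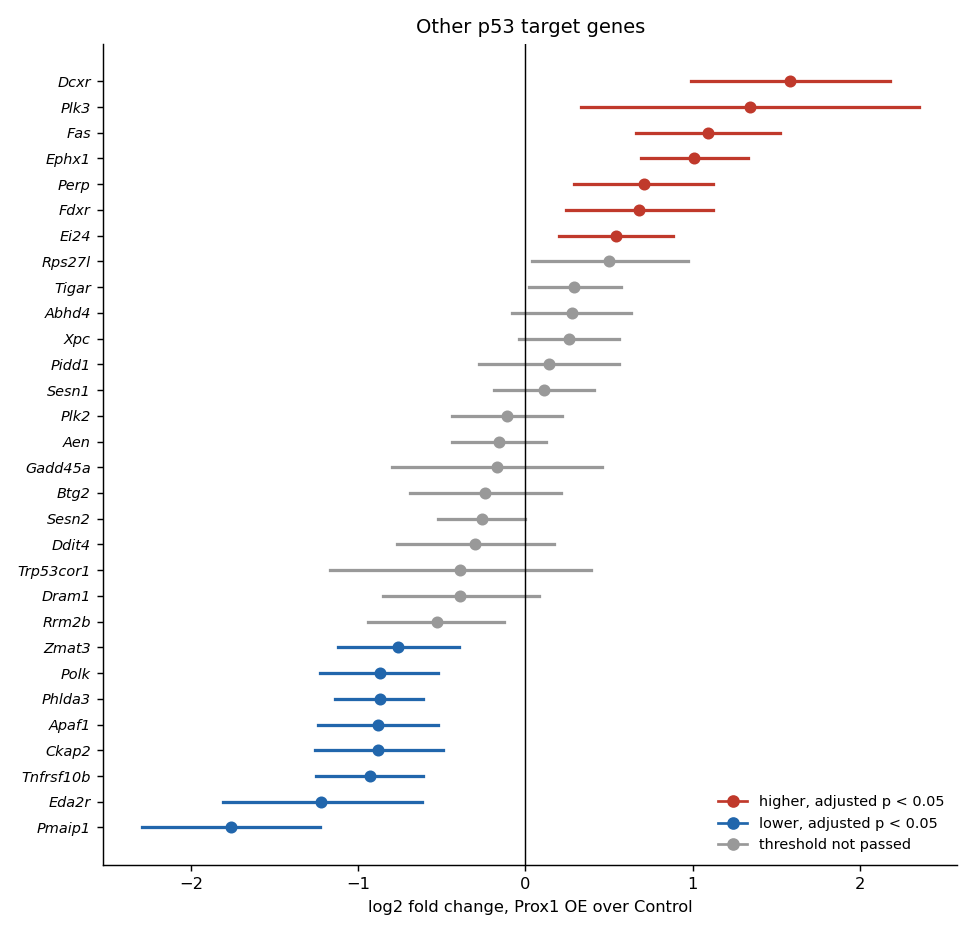
Log2 fold change with its 95% interval (limma) for the 30 tested genes of the other p53 target list, Prox1 OE over Control. Red genes passed an adjusted p of 0.05 as higher (7), blue genes as lower (8) and grey genes did not pass (15), with Dcxr (1.58) and Pmaip1 (-1.76) at the ends.

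Genes that act on p53 fell or did not pass. Over all genes tested, 17.1% rose and 16.2% fell, with a median log2 fold change of -0.02. Of 17 tested regulators, 0 rose and 7 fell, with a median log2 fold change of -0.40. They included the damage kinase genes Atm (772 and 676 normalised counts in Control, 554, 269 and 274 in Prox1 OE, log2 fold change -1.07, limma adjusted p 0.0374) and Chek1 (-0.84), and the p53 acetyltransferase gene Ep300 (-0.86). Usp7, which encodes a deubiquitinase of MDM2 and p53, did not pass (-0.27, limma adjusted p 0.0989). The call of Atm was lost when any library but Prox1 OE replicate 1 was left out (limma adjusted p 0.0931 to 0.189), with no filter (0.0666) and without the trend (0.0848). That of Chek1 was lost without Control replicate 1 (0.134), and that of Ep300 without Control replicate 1 (0.111), without Control replicate 2 (0.0675) and without the trend (0.0512). The count of 7 was 0 without Control replicate 1 (3 at an unadjusted p under 0.05), 1 without Control replicate 2, 3 without Prox1 OE replicate 2 or replicate 3, 13 under total-count scaling, 4 under upper-quartile factors and 3 with limma without the trend. The p53 relatives Trp63 and Trp73 had too little signal to be tested.

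Other cell cycle genes, brakes and drivers alike, fell or did not pass without a block. The counts below stand beside 17.1% higher and 16.2% lower among all genes tested, with a median log2 fold change of -0.02. Of 7 other CDK inhibitor and RB family genes, 3 fell and 0 rose, among them Cdkn1b, which encodes p27 (2484 and 2434 against 1399, 1417 and 1480 normalised counts, log2 fold change -0.78, limma adjusted p 0.00326), and Rbl1 (-0.90, adjusted p 0.112 without Control replicate 1). Rbl2 did not pass (-0.12). Without Control replicate 1, 1 of these genes fell, and under total-count scaling 6 fell. With the replicate number as a block, a fit that left out Prox1 OE replicate 3, 1 rose. This was Cdkn1c, which encodes p57 (log2 fold change 0.80, limma adjusted p 0.00545). Over all libraries without the block Cdkn1c had 0.65 and a limma adjusted p of 0.168, and its libraries overlapped between the groups. Of 8 G1 cyclin and kinase genes, 5 fell and 0 rose, with Ccnd2 at -0.98 and Ccnd1 at -0.70, while Ccnd3 did not pass (0.01). That count was 1 without Control replicate 1 and 1 without Control replicate 2. Of 24 proliferation genes, 20 fell and 0 rose, with a median of -0.79. Top2a, the topoisomerase of dividing cells, went from 10947 and 7348 normalised counts in Control to 4776, 4663 and 3390, and Ccna2 (-1.05) and Bub1 (-1.21) fell too. Mcm7 did not pass (-0.44). With limma without the trend 11 of the 24 fell. Without Control replicate 1 only 1 of the 24 fell with limma, and that library had the higher summed level of the 24 genes (99775 normalised counts, against 73288 in Control replicate 2 and 42163 to 54194 in Prox1 OE). Cdkn2a, Cdkn2b and Cdkn1b were lower in the same 3 libraries in which this sum was lower, and the part of either in the other was not tested.

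Bbc3 was examined beside the rest of the BCL2 family and the caspases. Of 17 tested genes, 4 fell and 0 rose (median -0.23), beside 16.2% lower and 17.1% higher among all genes tested, with Casp8 at -0.82, Bcl2 at -0.74 and Bik at -0.58, and Bcl2l1 did not pass (-0.27). Without Control replicate 1, 0 fell with limma (4 at an unadjusted p under 0.05), 1 fell without Control replicate 2, and 10 fell under total-count scaling. Of 13 senescence-associated genes, 1 rose and 4 fell (median -0.24), and the share called was near the 33.3% of all genes tested. Plaur, which encodes the urokinase receptor, fell by 1.47 on the log2 scale (limma adjusted p 0.00525), the lamin gene Lmnb1 by 1.20 and Igfbp3, which encodes a binding protein of insulin-like growth factors, by 1.08. Il1a rose (1.25) from a low level of 73.9 and 95.8 normalised counts in Control, and Igfbp7 did not pass (0.11). Without Control replicate 1, 0 rose with limma (1 at an unadjusted p under 0.05) and 2 fell, and under total-count scaling 7 fell.

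Gdf15 is also a target of the integrated stress response, in which ATF4 and CHOP act when translation is held back. Of 10 genes of that response, 2 rose, 2 fell and 6 did not pass (median 0.18), near the 17.1% higher and 16.2% lower among all genes tested. Fgf21 (log2 fold change 1.10) and Trib3 (0.60) rose, and Vldlr (-1.05) and Psat1 (-0.62) fell. Atf4 itself had 8115 and 8883 normalised counts in Control and 6734, 10183 and 10745 in Prox1 OE, which overlapped (0.09, limma adjusted p 0.763). These counts were 1 and 1 without Control replicate 1 and 1 and 1 without Control replicate 2, and 1 gene rose without Prox1 OE replicate 2 and under total-count scaling.

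**Figure D4:**
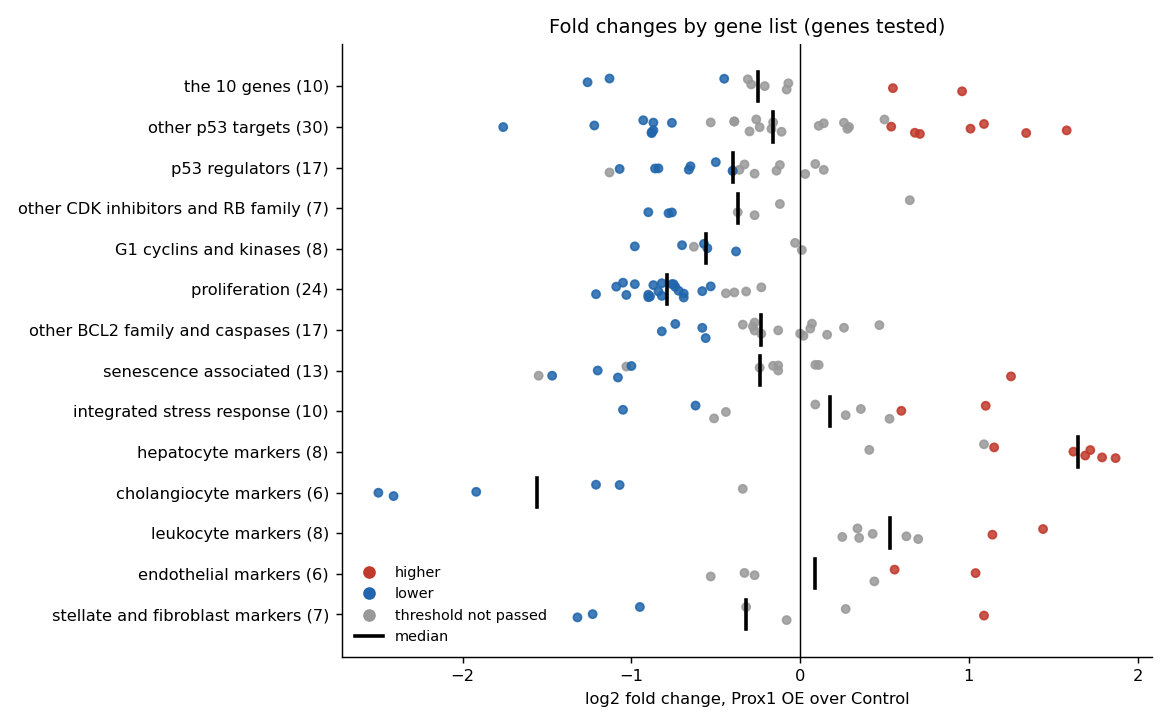
Log2 fold changes (horizontal axis, Prox1 OE over Control) of the tested genes of each list, with the number tested in parentheses and the median as a black bar. Red and blue points passed an adjusted p of 0.05 as higher or lower, and the proliferation list has its median at -0.79 and the hepatocyte list at 1.65.

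Markers of the cell types in the tumours were compared between the same groups, beside 33.3% passing among all genes tested (17.1% higher, 16.2% lower). The counts of the leukocyte and endothelial lists were near that share and are not read as particular to them. Of 8 hepatocyte markers, 6 rose and 0 fell, and their summed level was 1128344 and 1671352 normalised counts in Control against 3309048 to 4776199 in Prox1 OE (1 rose without Control replicate 1). Of 6 cholangiocyte markers, 5 fell and 0 rose, with sums of 751337 to 820215 in Control and 520362 to 703049 in Prox1 OE. Spp1, which did not pass (log2 fold change -0.34), made up 94.8% to 98% of these sums, and without it they were 35466 and 39327 in Control against 11045 to 14225 in Prox1 OE. Krt19 fell to 1643, 1968 and 1785 normalised counts. The count of 5 held with each library left out. Of 7 stellate and fibroblast markers, 1 rose (Lrat) and 3 fell, with sums of 78496 to 79216 and 39072 to 47490. Of 8 leukocyte markers 2 rose (Cd3e and Nkg7, both low) and 0 fell, with sums of 12167 to 17527 and 17896 to 33562, and none (0) rose with limma when any library but Prox1 OE replicate 1 was left out (1 to 5 at an unadjusted p under 0.05). Of 6 endothelial markers 2 rose (Stab2 and Tek) and 0 fell, with sums of 7793 to 9719 and 8286 to 11069 that overlapped, and 0 to 1 rose when any library but Prox1 OE replicate 1 was left out. For every list with a count of 0 by limma in the full data, 0 genes also had an unadjusted p under 0.05 in that direction, and edgeR and DESeq2 called 0. No list had its defining markers at 0. Akt1 (57782 and 55267 against 30413, 29720 and 22530 normalised counts) and Notch1 (13002 and 11967 against 7027, 5094 and 4524), the genes matching the injected oncogenes, were also lower in Prox1 OE, and plasmid reads were not separated from those of the mouse genes. The part of these differences in the changes of Trp53, Bbc3, Gdf15, Cdkn2a and Cdkn2b was not tested.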

How the data were processed

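RNA from Akt/NICD tumours (2 Control libraries, 3 Prox1 OE libraries) was sequenced by the authors as paired reads from stranded dUTP libraries and mapped with STAR to mm10. The counting tool and its strand setting are not given in the sources used here. The values of the deposited table are a normalised signal, made by the authors by dividing the reads of a gene by the DESeq2 size factor of its library. Whole reads were recovered for 100% of values (within 0.01 read), with 1 read worth 0.822 to 1.18 normalised counts. Totals were 48740863 to 56629477 reads per library, and a count of 3 reads is 2.46 to 3.54 normalised counts, which covers counting error only. Replicates were distinct, at 36.2 to 115 for chi-square over its degrees of freedom between the reads of any pair. The number of value columns left unassigned was 0. A second deposited table, which was not used, holds the authors' own comparison, with a mean, a shrunken log2 fold change and p-values, both raw and adjusted with or without independent hypothesis weighting.

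Symbols were matched for 55137 of 55397 identifiers (99.5%), with coordinates and exon lengths from GENCODE M21 and promoter windows from RefSeq. The test was limma 3.58.1 (R 4.3.3), lmFit and eBayes with trend on log2(normalised count + 1), which understates changes of low genes. It was two-sided, over the 17105 genes with a mean of at least 10, with Benjamini-Hochberg adjustment over all of them, a threshold of 0.05 and no covariate. Ratios were compared by an exact permutation test. On recovered reads, edgeR 4.0.16 called 5761 genes and DESeq2 1.42.0 called 6647, beside 5702 by limma.

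The members were named with no threshold on values, but they and the gene lists were chosen with earlier results of these data known, so their choice was not independent of the data. From each other list the text names, in each direction, the 3 called genes with the largest fold change (2 for lists under 10 genes) and the uncalled gene with the highest mean. Where a list has no such gene, none is named, and some named by the rule are given only as part of a count. Alternatives were TMM and upper-quartile factors, the total count as library size, pseudocounts of 0.1 and 10, no filter, a mean of at least 50, no trend, edgeR, DESeq2, a replicate block and each library left out. The block fit had no Prox1 OE replicate 3, since no Control library shares its number. In the senescence list, 1 gene is not reported here and was left out of its counts.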

Additional observations from a re-analysis of the deposited data

How the results depend on the processing

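Of the 160 refits of single members (10 genes under 16 alternatives), 133 kept the side of the threshold, 22 lost a call and 5 gained one, and no call changed direction. Over the fits that left out 1 library, called genes ran from 1511 to 7494, members higher from 1 to 2, members lower from 0 to 3, other p53 targets higher from 2 to 8 and lower from 4 to 9. Where a Control library was left out, the remaining one was assumed to vary like the Prox1 OE libraries. The total count as library size gave 1 member higher and 8 lower, and 3 other p53 targets higher and 15 lower, and it moved the share of all calls that were higher from 51.4% to 17.7% and the median of all genes to -0.45. Upper-quartile factors gave 1 member lower, with 60.3% of calls higher. Without the trend 1 member was lower and 3 other p53 targets were higher, and with no filter 4 other p53 targets were higher. The log2 ratios of members moved by less than the spread of the Prox1 OE libraries under the pseudocounts and with each library left out, although Cdkn2b to Cdkn2a changed sign to 0.08 without Prox1 OE replicate 2. Among the other lists, 48 of 384 counts moved by more than 1.5 times, 26 of them when a library was left out. Beside those given with the lists, leukocyte markers called higher were 1 under the total count, without a filter or with the filter set at 50, and 4 by DESeq2. Endothelial markers called higher were 1 under the total count, no filter, no trend and the block, and those called lower were 3 under the total count and 1 under the block. Stellate markers called higher were 2 under upper-quartile factors and those called lower 5 under the total count, and without the trend 1 gene of the integrated stress response fell.

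The correlation of deviations from the group mean was 0.137 and 0.016 for Control and Prox1 OE libraries that share a number. It was -0.14 to 0.14 for the others. The deviations of the 2 Control libraries mirror each other, so these values cannot decide whether the replicate numbers pair the libraries. The fit with the replicate number as a block left out Prox1 OE replicate 3, so the part of the block and that of the lost library cannot be told apart. It called 5187 genes, 4825 of them shared with the main fit over all libraries. In it 2 members were higher and 2 lower, Trp53 having an adjusted p of 0.0666 (limma). Cdkn1c was called higher in that fit alone.

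At 50 to 282 reads per library, Cdkn2a was the least precisely measured member, and its 95% interval was the widest. With 2 Control libraries the spread of that group rests on a single difference. The causes of these dependences were not tested. No alternative planned was left out.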

Other observations

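The following values were chosen after they had been seen. Mtap, which lies near Cdkn2a on chromosome 4, had 1865 and 1817 normalised counts in Control and 1959, 1592 and 1873 in Prox1 OE. These overlapped (limma adjusted p 0.867, log2 fold change -0.03), whereas Cdkn2a and Cdkn2b of the same region fell. The log2 ratio of Gdf15 to Trp53 within a library was -2.74 and -2.6 in Control and -1.45, -1.32 and -0.99 in Prox1 OE, a difference of 1.41 (exact permutation two-sided p = 0.1, the smallest possible). That of Bax to Bcl2, a survival gene that fell, was 2.12 and 2.28 in Control and 2.72, 2.89 and 2.98 in Prox1 OE, a difference of 0.66 with the same p by the exact permutation test.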
